A study of Mus musculus with 6 samples.

Results

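The 82 genes described here encode proteins of the splicing machinery and its best known partners. They were chosen by name from the 25407 rows of the deposited table: protein-coding rows whose symbol starts with Srsf (SR proteins, 10 genes), Sf3a or Sf3b (9), Snrp (12), Lsm (14), Prpf (13) or Hnrnp (19 by the rule used), and the 5 single genes Acin1, Srrm1, Srrm2, U2af1 and U2af2. The set was put forward with treated-against-control results of these libraries known, so the counts and fold changes below describe the genes and support nothing about the set. One of the 82, Lsmem1, shares the Lsm prefix but encodes a leucine-rich single-pass membrane protein and is no LSM protein.

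All libraries were made from CT26.WT, an established colon carcinoma line of the mouse that is a single clone. The labels name 3 libraries only as controls, without saying what those cells received. The 3 treated libraries come from cells given Cu2O@AuMn@HA, a particle preparation, together with NaHS, a hydrogen sulfide donor, and NIR, near-infrared light. No dose or exposure time is given in the sources used here, nor whether the libraries of a group were separate cultures. All values compare the whole combination with control, and the effects of its components cannot be told apart.

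Splicing removes introns in a large RNA-protein machine, the spliceosome, which is assembled anew on each intron from small nuclear ribonucleoproteins (snRNPs) called U1, U2, U4, U5 and U6. A ring of Sm proteins (Snrp genes) wraps the RNA of U1, U2, U4 and U5, a ring of LSM proteins wraps U6, the SF3a and SF3b complexes let U2 grip the branch point, and Prpf proteins hold the U4/U6.U5 tri-snRNP together. SR proteins bind exons and recruit the machinery, whereas hnRNPs coat nascent RNA and often oppose exon use. Many SR protein and hnRNP genes are also known to limit their own mRNA through poison exons or retained introns.

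The stretches below are the 140 bases just upstream of the annotated start of the 4 members with the strongest decreases among called members and of 3 with strong increases, and show the promoters of the genes on which the results turn. They come from the RefSeq promoter table (build GRCm38.p6), which held an entry for 70 of the 82 genes. They are read 5′ to 3′ on the gene's strand. Capitals mark every match, on either strand, to 1 of 7 motifs searched: CCAAT box (CCAAT), E2F site (TTTCCCGC), ETS site (CCGGAAGT), a heat shock element pair (GAANNTTC), TATA box (TATAAA), cyclic AMP element (TGACGTCA) and E-box (CACGTG). The first 4 fell in treated cells and the last 3 rose.
Lsm2 (chr17:34981714-34981853, plus strand): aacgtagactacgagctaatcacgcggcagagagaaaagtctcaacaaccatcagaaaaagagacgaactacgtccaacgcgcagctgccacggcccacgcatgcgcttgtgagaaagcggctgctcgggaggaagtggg
Acin1 (chr14:54686966-54687105, minus strand): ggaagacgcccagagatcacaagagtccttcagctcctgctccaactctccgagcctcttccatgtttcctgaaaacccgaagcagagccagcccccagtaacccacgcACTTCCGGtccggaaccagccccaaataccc
Srrm2 (chr17:23803047-23803186, plus strand): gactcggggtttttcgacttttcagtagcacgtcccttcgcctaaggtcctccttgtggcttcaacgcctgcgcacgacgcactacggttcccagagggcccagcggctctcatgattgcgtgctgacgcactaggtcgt
Srsf2 (chr11:116853095-116853234, minus strand): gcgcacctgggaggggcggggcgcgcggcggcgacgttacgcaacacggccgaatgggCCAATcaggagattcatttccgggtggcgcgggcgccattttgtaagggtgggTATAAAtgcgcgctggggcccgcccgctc
Prpf39 (chr12:65036194-65036333, plus strand): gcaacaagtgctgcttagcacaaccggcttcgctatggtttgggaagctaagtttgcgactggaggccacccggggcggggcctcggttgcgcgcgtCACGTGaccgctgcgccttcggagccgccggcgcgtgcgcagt
Snrpe (chr1:133610281-133610420, minus strand): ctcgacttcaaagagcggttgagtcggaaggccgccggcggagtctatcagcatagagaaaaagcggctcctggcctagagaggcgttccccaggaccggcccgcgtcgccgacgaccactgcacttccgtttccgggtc
Sf3b1 (chr1:55027479-55027618, minus strand): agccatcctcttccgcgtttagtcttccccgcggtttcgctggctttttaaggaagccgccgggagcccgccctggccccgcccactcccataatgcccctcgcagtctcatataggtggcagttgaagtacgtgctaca

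The Acin1 stretch held the ETS letters, the Srsf2 stretch a CCAAT box and a TATA box, and the Prpf39 stretch an E-box, while the other 4 held none of the 7 motifs. Over the 250 bases upstream of the start, the CCAAT letters were found in 34 of the 70 members' promoters (48.6%), against 34.5% of all 27025 promoters in the table. The ETS letters were found in 7 of 70, against 2.93% of all promoters, and the E2F letters in 4 of 70 (5.71%), against 0.929%. The TATA box was in 7.14% of the members' promoters and 3504 of the 27025, the heat shock element pair in 5.71% and 6.78%, the E-box in 5.71% and 6.05%, and the cyclic AMP element in 2.86% and 1.62%. Of the 70 members with a promoter 35 fell and 12 rose. The CCAAT letters were in 17 of the 35 and 4 of the 12, the ETS letters in 6 and 0, the TATA box in 4 and 0, the E2F letters in 3 and 0, the heat shock pair in 2 and 1, and the cyclic AMP element and the E-box each in 0 and 1. These are matches of letters in a window, described without a test, and no motif overlapped another in the printed stretches.

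Libraries held 71409968 to 81821380 estimated counts in control cells and 62328377 to 70323604 in treated cells. Low counts were too frequent at multiples of 4, so a fragment seemed to weigh about 4 estimated counts. The first principal component (57.3% of the variance) separated the groups, and control library 2 stood apart from the other controls on the second (14.3%). Of the line's markers, Krt18 and Vim were abundant while Epcam and Cdh1 were at or near 0 in all 6 libraries. The markers were not level between the groups. The 9 epithelial markers in the table summed to 153 to 170 FPKM in control and 225 to 238 in treated libraries. Most of that came from Krt18 and Krt20, whose means moved in opposite directions. Krt18 went from 65.4 FPKM in controls to 163 in treated cells, and Krt20 from 90.3 to 57.5. The 3 mesenchymal markers summed to 1050 to 1127 and 1511 to 1611 FPKM, mostly from Vim. Vim and Fn1 were higher in treated cells, while Col1a1 went from 31.1 to 15.1 FPKM. The mitochondrial share of counts was 1.25% to 1.86% in the controls and 1.96% to 3.45% after treatment, with treated library 2 the highest. The part of these differences in the results below was not tested. Leukocyte markers summed to 2.57 to 3.07 FPKM in control and 2.28 to 3.62 in treated libraries, nearly all from Lyz2, with Ptprc at or near 0.

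Levels are given as FPKM, a level normalised for transcript length and library depth, and a difference as edgeR's log2 fold change of treated over control. Its standard error (SE) was derived from the edgeR test, as the absolute log2 fold change divided by the square root of the F statistic. A gene is said to have risen or fallen where its p, adjusted over all 16212 rows tested, was below 0.05. By that rule 40 of the 80 members tested fell and 15 rose. Over all rows tested 46.6% were called, 23.0% risen and 23.5% fallen, and over protein-coding rows 51.6% were called, 23.9% risen and 27.6% fallen. The members' median log2 fold change was -0.24, against 0.06 over all rows and 0.00 over protein-coding rows. The members were also more abundant, with a median of mean FPKM of 17.8, against 2.42 over all rows and 3.63 over protein-coding rows. Spearman's rho between log2 fold change and mean FPKM was -0.23 over the members and -0.23 over all rows. The part of level in the counts of calls was not tested. A decrease of 2-fold or more was called for 9 members (5.18% of all rows) and an increase of that size for 2 (9.87%). Lsmem1 and Snrpn, a brain-type Sm protein, were removed by edgeR's filter on low counts and were not tested. Lsmem1 had 0 counts in the controls and at most 4 in a treated library. Snrpn had 3 estimated counts in treated library 3 and 0 in the other 5. Both genes were also below 12 estimated counts, or about 3 fragments, in every library. The levels are relative within a library, and in bulk RNA a lower level in every cell and a loss in part of the cells cannot be told apart.

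**Figure D1:**
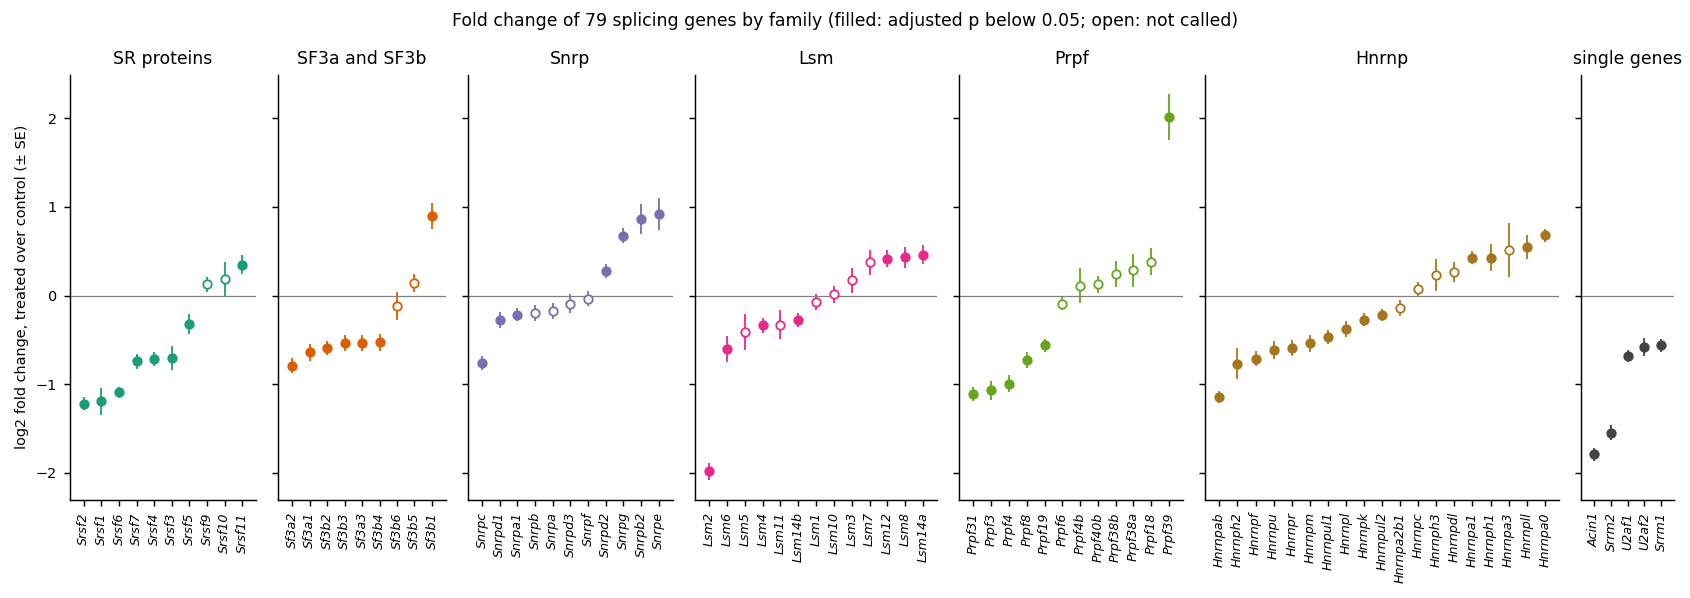
Log2 fold change of treated over control cells (y axis) for 79 of the 80 members tested (x axis), in 1 panel per family. Points are edgeR estimates, bars are standard errors, filled points passed an adjusted p of 0.05 and open points did not. The 5 single genes and 7 of 10 SR proteins lie below 0 and are called, whereas the Snrp and Lsm panels hold members on both sides.

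Of the 10 SR genes, the 7 numbered Srsf1 to Srsf7 all fell, and the other 3, described below, did not. Srsf2 (SC35), which marks nuclear speckles and activates exons, stood at 44.96, 41.8 and 43.7 FPKM in the control libraries and 20.8, 19.4 and 17.3 in the treated libraries, a log2 fold change of -1.22 ± 0.073 SE. The groups lay far apart for their spread. Srsf1 (ASF/SF2), the founding SR protein, went from 13.98, 10.3 and 11.8 FPKM to 5.62, 6.51 and 4.01 (-1.19 ± 0.156 SE). Srsf6 (SRp55), another exon-binding SR protein, measured 26.4, 24.9 and 26.2 FPKM in controls and 13.05, 12.2 and 12.03 after treatment (-1.09 ± 0.065 SE). The groups of both genes were well apart, and treated library 3 was the lowest for each.

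Smaller decreases were measured for the other 4 genes from Srsf1 to Srsf7. Srsf7 (9G8), which also takes part in mRNA export, was at 26.7, 22.5 and 26.4 FPKM in controls and 14.8, 15.96 and 15.5 in treated cells (-0.74 ± 0.081 SE). Srsf3 (SRp20), the smallest SR protein and an export adaptor, was at 14.6, 9.75 and 11.4 FPKM and 7.17, 8.82 and 6.47 (-0.71 ± 0.140 SE). For Srsf3 the groups nearly touched, since control library 2 was only slightly above treated library 2. Srsf4 (SRp75), the largest of them, went from 21.7, 23.1 and 20.8 to 13.8, 13.6 and 13.6 FPKM (-0.72 ± 0.080 SE), and its treated libraries were nearly equal. Srsf5 (SRp40) had the weakest call: its values were 29.4, 22.1 and 20.9 FPKM in controls and 20.8, 20.4 and 18.4 in treated cells (-0.32 ± 0.113 SE), with control library 1 high and the other values close together. Its call was lost without control library 1 (-0.19) and without any of the 3 treated libraries.

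Of the 3 remaining SR-type genes 1 rose and 0 fell. Srsf9 (SRp30c), the most abundant of the family, was at 54.1, 58.6 and 57.8 FPKM in controls and 67.9, 58.9 and 64.05 in treated cells, a log2 fold change of 0.13 ± 0.082 SE that was not called (adjusted p = 0.24). Srsf11 (p54), an SR-like protein, rose from 4.04, 3.78 and 4.23 to 5.45, 5.91 and 4.41 FPKM (0.35 ± 0.103 SE). That call was lost without control library 1 or 2 or treated library 1 or 2. Srsf10 (SRp38), known as a splicing repressor when dephosphorylated, had 0.18 and was not called (adjusted p = 0.47).

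In a fit that corrected each library for transcript GC content, all 7 genes from Srsf1 to Srsf7 again fell, Srsf7 by more (-1.19) and Srsf5 too (-0.50). Over all rows in that fit 49.7% were called, 26.1% risen and 23.6% fallen. Under that correction Srsf9 and Srsf11 rose (0.25 and 0.30) and Srsf10 changed sign and fell (-0.38).

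Of the 11 genes for SF3 and U2AF subunits, which recognise the branch point and the 3′ splice site, 8 fell and 1 rose. All 3 SF3a subunits fell, and Sf3a2 (SF3a66) fell most, from 39.4, 38.2 and 37.3 FPKM in controls to 22.6, 21.1 and 24.3 in treated cells (-0.79 ± 0.083 SE). Sf3a1 (SF3a120) was at 31.2, 35.3 and 32.8 FPKM and 21.9, 20.1 and 23.2 (-0.64 ± 0.096 SE), and every treated library was below every control. Sf3a3 (SF3a60) fell by 0.53. Of the 6 SF3b genes 3 fell. Sf3b4 (SF3b49), the most abundant of the family, was at 126, 142 and 126 FPKM in controls and 96.6, 85.2 and 98.9 in treated cells (-0.53 ± 0.098 SE). For Sf3b2 (SF3b145) the values were 59.8, 65.3 and 61.5 and 44.1, 41.97 and 41.1 FPKM (-0.59 ± 0.078 SE). Sf3b3 (SF3b130), a scaffold built of propeller domains, was at 25.3, 28.5 and 27.95 FPKM and 20.2, 18.2 and 19.5 (-0.54 ± 0.087 SE). None of these 3 had overlapping groups. With GC correction Sf3b2 and Sf3b4 still fell, by less (-0.39 and -0.33).

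Sf3b1, the large subunit that closes over the branch point adenosine, went the other way. It stood at 3.93, 3.14 and 3.52 FPKM in controls and 7.09, 8.23 and 4.98 in treated cells (0.90 ± 0.150 SE), with no overlap and treated library 3 the lowest of its group. Its transcripts are low in GC (40.5%), and with GC correction the log2 fold change was 0.20 and the call was lost (adjusted p = 0.067). The small subunits Sf3b5 (SF3b10) and Sf3b6 (p14) were not called, at 0.14 and -0.12. Sf3b6 was uneven among controls (23.3, 13.6 and 18.4 FPKM), and with GC correction it was called as fallen (-0.59).

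U2af1 and U2af2, the small and large subunits of the factor that reads the 3′ splice site and the tract before it, fell together. U2af1 (U2AF35) went from 46.3, 46.9 and 50.1 FPKM to 30.7, 30.02 and 30.8 (-0.68 ± 0.071 SE). U2af2 (U2AF65) was at 75.6, 89.7 and 83.00 FPKM in controls and 58.1, 52.9 and 59.4 after treatment (-0.58 ± 0.099 SE). Control libraries spread more for U2af2 than for U2af1, and in neither gene did the groups overlap. With GC correction U2af2 fell by 0.38.

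Among the 8 Sm ring genes, 3 rose, 1 fell, 3 were not called and Snrpn was not tested. Snrpb (SmB/B'), the most abundant member of all 82, stood at 205, 225 and 222 FPKM in controls and 196, 183 and 205 in treated cells. Its log2 fold change of -0.20 ± 0.088 SE was not called (adjusted p = 0.095), although it was called without treated library 3. Its lowest control and highest treated values were nearly equal. Snrpg (SmG) rose from 16.04, 14.6 and 14.8 to 24.3, 25.9 and 24.1 FPKM (0.67 ± 0.083 SE), with the 2 groups far apart for their spread. Snrpe (SmE) rose from 10.3, 11.5 and 14.8 to 21.1, 30.4 and 19.6 FPKM (0.92 ± 0.181 SE), with treated library 2 well above the other treated libraries. Snrpd2 (SmD2) rose by 0.28 and Snrpd1 (SmD1) fell by 0.28. The first call was lost without any 1 of the 3 controls and the second without control library 2 or 3 or treated library 1. With GC correction Snrpd1 fell by 0.58. Snrpd3 (SmD3, -0.09) and Snrpf (SmF, -0.03) were not called, and Snrpf was called as fallen with GC correction (-0.62). A ring holds a single copy of each of 7 Sm proteins, and here the 7 tested genes had values between -0.28 and 0.92.

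Snrpe needs a reservation, because a pseudogene row named after it, Snrpert, was listed at 33.4, 21.5 and 11.4 FPKM in controls and 18.7, 16.1 and 21.3 in treated cells. In each control library but the third the pseudogene row was above the gene itself. The sum of both rows was 34.3 ± 8.8 FPKM in controls and 42.4 ± 3.55 in treated cells (SD, n = 3), a ratio of 1.24 with overlapping groups, against a fold of 1.89 for Snrpe alone. How fragments were divided between the 2 rows was not tested, so the size of the rise in Snrpe is uncertain.

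The Snrp genes that belong to U1 or U2 alone split as well. Snrpc, the U1 protein that helps U1 hold the 5′ splice site, fell from 16.7, 17.5 and 17.6 to 10.3, 9.93 and 11.1 FPKM (-0.76 ± 0.081 SE). Snrpb2, a U2 stem-loop binder, rose from 10.6, 7.19 and 7.08 to 13.8, 19.1 and 13.5 FPKM (0.87 ± 0.172 SE), with control library 1 above the other controls. That rise was not called with GC correction (0.22, adjusted p = 0.17). Snrpa1, the partner of Snrpb2 on the same stem-loop, fell by 0.22, a call lost without any 1 of 5 libraries (all but treated library 3). Snrpa, which binds a U1 stem-loop, was not called at -0.18 (adjusted p = 0.13), and was called without treated library 3 (-0.24).

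**Figure D2:**
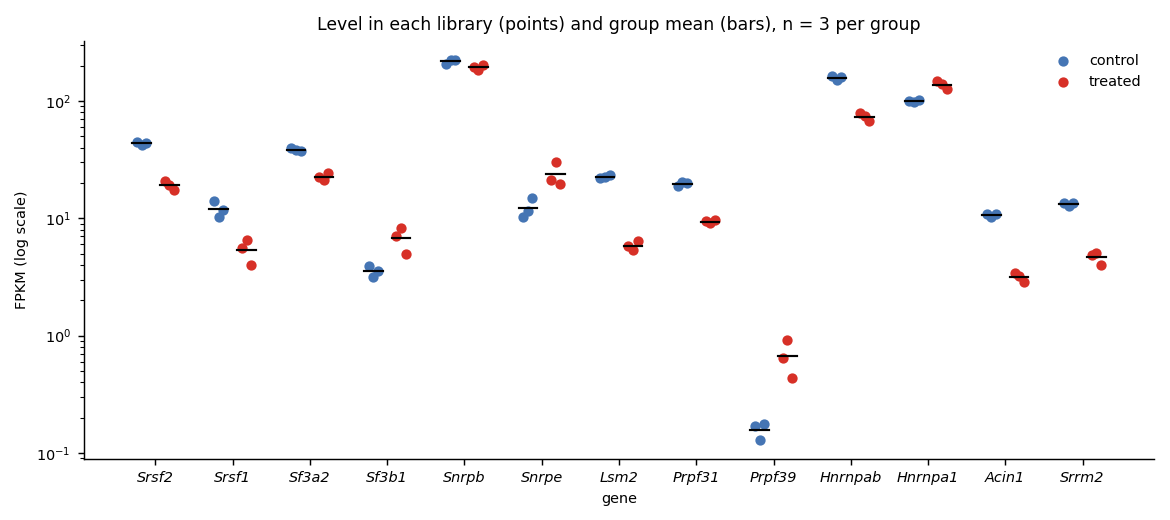
FPKM in each library (y axis, log scale) for 13 members (x axis). Blue points are control libraries, red points treated libraries and black bars group means. Lsm2, Acin1, Srrm2, Srsf2, Srsf1, Prpf31 and Hnrnpab are lower in all 3 treated libraries, Prpf39, Sf3b1, Snrpe and Hnrnpa1 are higher, and Snrpb was not called.

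The strongest decrease of all members was that of Lsm2, a subunit of the LSM ring that holds the end of U6. It stood at 22.02, 22.4 and 23.5 FPKM in controls and 5.79, 5.36 and 6.38 in treated cells, -1.99 ± 0.099 SE on the log2 scale and 3.96-fold lower. Both groups were tight and lay far apart. The other ring subunits did not match it. Lsm6 fell from 4.09, 3.10 and 4.33 to 2.88, 2.60 and 2.27 FPKM (-0.60 ± 0.147 SE). Lsm4, the most abundant, went from 72.7, 75.02 and 76.9 to 60.3, 56.7 and 65.2 FPKM (-0.34 ± 0.086 SE), and from -0.34 to -0.20 with GC correction. Lsm3 (0.17), Lsm5 (-0.41) and Lsm7 (0.37) were not called. Lsm5 was called as fallen without treated library 2 (-0.62), and Lsm7 as risen without control library 1 (0.45). Lsm8, the subunit that sets the nuclear ring apart from the cytoplasmic one, rose by 0.43. Without control library 2 or 3 or treated library 2 its call was lost, and with GC correction its value was -0.0049. With that correction Lsm5 was called as fallen (-1.22) and Lsm7 as risen (0.56).

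Outside the nuclear ring, Lsm1, which replaces Lsm8 in the cytoplasmic decay ring, was not called (-0.07). Lsm10 and Lsm11, which form the U7 ring used for histone mRNA ends, were not called either. Lsm10 was at 23.5, 22.4 and 23.7 FPKM in controls and 24.5, 22.9 and 24.5 in treated cells, and Lsm11 at 2.05, 2.95 and 2.64 and 2.00, 1.97 and 2.27. The groups of both genes overlapped, Lsm11 was called without control library 1 (-0.49), and Lsm10 was called with GC correction (0.22). Lsm12 rose from 11.1, 10.1 and 9.08 to 14.1, 14.5 and 12.9 FPKM (0.42 ± 0.099 SE). Lsm14a, a P-body protein involved in translational repression, rose from 9.87, 8.69 and 9.90 to 14.03, 15.3 and 10.98 FPKM (0.46 ± 0.105 SE). Its relative Lsm14b fell by 0.28, and its value of -0.09 under GC correction was not called.

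In the Prpf family 4 of 5 tri-snRNP genes fell. Prpf31, which clamps the U4 snRNA and without which the tri-snRNP does not form, went from 18.9, 20.2 and 19.9 FPKM to 9.46, 9.05 and 9.58 (-1.11 ± 0.077 SE). Prpf3, a U4/U6 protein, was at 7.99, 9.33 and 7.95 FPKM in controls and 4.41, 4.29 and 3.69 in treated cells (-1.07 ± 0.107 SE). Its partner Prpf4 was at 6.13, 5.46 and 5.32 and 2.93, 2.79 and 2.98 FPKM (-0.99 ± 0.098 SE). In these 3 genes every treated library was far below every control. Prpf8, the scaffold at the catalytic centre, fell from 39.1, 45.9 and 42.3 to 27.1, 25.9 and 25.97 FPKM (-0.73 ± 0.089 SE). Prpf6, which bridges U5 and U4/U6, was at 30.3 ± 0.83 FPKM in controls and 29.2 ± 1.5 in treated cells (SD, n = 3) and was not called (-0.09).

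Prpf39, the counterpart of a yeast U1 snRNP protein, showed the strongest increase of all members. Prpf39 was at 0.169, 0.130 and 0.175 FPKM in controls and 0.647, 0.910 and 0.438 in treated cells (2.02 ± 0.259 SE, 4.05-fold higher). It was the least counted of the tested members, down to 137 estimated counts in a library. Treated library 2 was highest and treated library 3 lowest, and the groups did not overlap. With GC correction the value was 1.21 and was called. The opposite-strand neighbour that overlaps Prpf39, Fkbp3, rose too (1.28), and whether the counting used the strand is not given in the sources used here. Prpf40b, also related to a yeast U1 snRNP protein, was not called (0.13), and rose with GC correction (0.30).

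Of the other Prpf genes, Prpf19, the ubiquitin ligase of the complex that activates the spliceosome, fell by 0.56 (by 0.35 with GC correction). Prpf4b, a kinase that acts on the tri-snRNP, was low and not called, at 0.656, 0.515 and 0.766 FPKM in controls and 0.707, 0.856 and 0.569 in treated cells (0.11 ± 0.199 SE). Prpf18, a second-step factor (0.38), and Prpf38a and Prpf38b (0.28 and 0.24) were not called. Prpf18 was called without control library 1 or treated library 3 (0.48 and 0.49), and Prpf38b without treated library 3 (0.38). Prpf38a changed sign with GC correction and was called as fallen (-0.37).

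Among the 19 hnRNP genes 10 fell and 4 rose. Hnrnpab, an A/B-type hnRNP and the most abundant of the family in control cells, was at 162, 152 and 161 FPKM in controls and 78.6, 74.5 and 67.3 in treated cells (-1.14 ± 0.073 SE). In the same A/B group 2 genes rose. Hnrnpa1, the best studied antagonist of SR proteins, rose from 99.3, 97.6 and 102 to 149, 138 and 125 FPKM (0.43 ± 0.075 SE). Hnrnpa0 rose from 58.8, 57.5 and 56.3 to 101, 90.2 and 92.2 FPKM (0.68 ± 0.074 SE), and neither gene's groups overlapped. Hnrnpa1 was the most abundant hnRNP in every treated library, whereas Hnrnpab was in every control library. The rise of Hnrnpa1 was not called with GC correction (0.20, adjusted p = 0.079), and that of Hnrnpa0 was larger (0.88).

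Hnrnpa2b1, the close relative of Hnrnpa1, was not called. Its values were 40.03, 38.3 and 37.02 FPKM in controls and 37.9, 39.4 and 30.5 in treated cells (-0.14 ± 0.092 SE, adjusted p = 0.25), with only treated library 3 below the controls. With GC correction it was called as fallen (-0.78). Hnrnpdl was not called (0.27), and was called without control library 1 (0.37). Hnrnpa3 was not called (0.51, adjusted p = 0.19), and its value ran from 0.20 without treated library 2 to 0.92 without control library 2, where it was called. It too has a pseudogene row in the file, Gm6793, which held 93.7% of the summed FPKM of both rows in controls and 93.5% in treated cells. That row was at 33.3 ± 2.62 FPKM in controls and 48.0 ± 9.30 in treated cells (SD, n = 3) and rose by 0.49, so the level of Hnrnpa3 is uncertain. The 2 pseudogene rows named after an Hnrnpa1-like gene were listed at 0.259 FPKM at most.

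Hnrnpf, which binds G-runs, fell from 123, 118 and 113 to 79.7, 77.9 and 64.5 FPKM (-0.71 ± 0.085 SE), with treated library 3 the lowest. Of its relatives Hnrnph2 fell by 0.77 (by 1.22 with GC correction), Hnrnph3 was not called (0.23), and Hnrnph1 rose by 0.43 with overlapping groups. Hnrnph3 was called without treated library 3 (0.41). The call of Hnrnph1 was lost without any 1 of 5 libraries (all but treated library 3), its value was 0.23 without treated library 2, and with GC correction it was -0.08.

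The 3 hnRNP U genes, whose best known member Hnrnpu binds chromatin-associated RNA, all fell: Hnrnpu by 0.62 (1.13 with GC correction), Hnrnpul1 by 0.47 and Hnrnpul2 by 0.22. The call of Hnrnpul2 was lost without control library 2 or 3 or treated library 1. Hnrnpk, a binder of C-rich RNA and DNA, fell from 61.5, 58.95 and 59.7 to 50.1, 56.1 and 47.04 FPKM (-0.27 ± 0.079 SE). Its decrease was not called without treated library 1 (-0.26, adjusted p = 0.074), and was larger with GC correction (-0.60). Hnrnpr fell from 1.94, 1.87 and 2.01 to 1.39, 1.41 and 1.16 FPKM (-0.59 ± 0.089 SE). Hnrnpm fell by 0.54 and Hnrnpl, known for CA repeats, by 0.38 (0.21 with GC correction). Hnrnpll, the relative of Hnrnpl known from T cells, rose by 0.55. Without control library 3 that call was lost (adjusted p = 0.05001), without treated library 2 the value was 0.36, and with GC correction it was 0.20 and not called. Hnrnpc, which keeps intronic repeats out of mRNA, was not called (0.07), and was called as fallen with GC correction (-0.38).

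The 3 large RS-domain proteins of speckles and exon junctions fell, and 2 of them were among the 4 strongest decreases. Acin1 (Acinus), part of the ASAP complex and known as a caspase substrate, went from 10.9, 10.3 and 10.96 FPKM to 3.40, 3.21 and 2.86 (-1.79 ± 0.075 SE, 3.47-fold lower). Srrm2 (SRm300), a core protein of nuclear speckles, went from 13.4, 12.7 and 13.6 to 4.83, 5.07 and 4.02 FPKM (-1.55 ± 0.084 SE, 2.92-fold lower). In both genes the treated libraries lay far below the controls and close to each other. Srrm1 (SRm160), their partner in exon-bound complexes, fell from 18.3, 19.00 and 18.99 to 13.7, 12.2 and 13.1 FPKM (-0.56 ± 0.076 SE). With GC correction the values were -1.58, -1.36 and -0.54.

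Set side by side, the families differed in their counts and medians, which are given as a description and were not tested against each other. The SR proteins had 1 risen and 7 fallen of 10 (median -0.71), the SF3 genes 1 and 6 of 9 (-0.53), and the single genes 0 and 5 of 5 (-0.68). The hnRNP genes had 4 risen and 10 fallen of 19 (-0.22). Closer to balance were the Snrp genes, with 4 risen and 3 fallen of 11 tested (-0.09), and the Lsm genes, with 3 and 4 of 13 (-0.07). The Prpf genes had 2 risen and 5 fallen of 13 (0.11). Of the genes tested 80% were called among SR proteins, 77.8% among SF3 genes and 100% among the single genes. The share was 73.7% among hnRNP genes, 63.6% among Snrp genes and 53.8% among both Lsm and Prpf genes. The Lsm and Prpf shares were near that over protein-coding rows, where 51.6% were called, 23.9% risen and 27.6% fallen. The Prpf median depended on the setting, since it was -0.34 with GC correction, -0.03 without control library 2 and -0.05 without treated library 2. The hnRNP median was -0.38 with GC correction, and the Snrp and Lsm medians were then 0.00.

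Summed over all 82 genes, the level was 2384 ± 5.98 FPKM in controls and 1999 ± 48.6 in treated cells (SD, n = 3), or 0.791% to 0.802% of the FPKM of all protein-coding rows in controls and 0.601% to 0.648% in treated cells. The SR sum went from 227 ± 10.1 to 165 ± 7.16 FPKM and the SF3 sum from 363 to 266. The Snrp sum was nearly level, at 483 in controls and 478 in treated cells. The Lsm sum went from 208 to 185, the Prpf sum from 165 to 123, the hnRNP sum from 765 to 674 and the sum of the single genes from 173 to 108. Within the summed FPKM of the members, Snrp genes took 20.3% ± 0.402 in controls and 23.9% ± 1.04 in treated cells. SR genes took 9.54% ± 0.404 and 8.23% ± 0.158, and in neither family did the 2 groups of libraries overlap. HnRNP genes took 32.1% ± 0.532 and 33.7% ± 1.77, with overlapping groups.

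**Figure D3:**
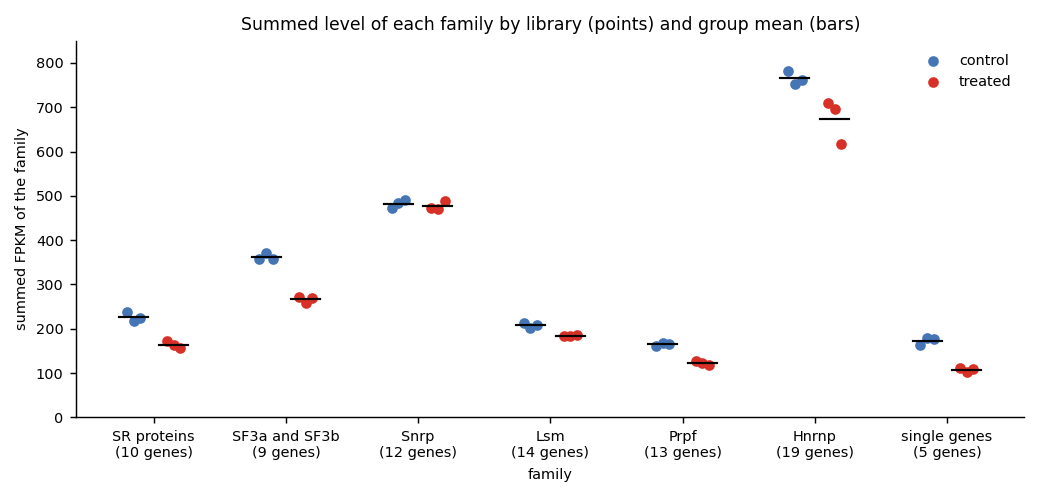
Summed FPKM of each family (y axis, from 0) in each library, for the 7 families (x axis, with the number of genes). Blue points are control libraries, red points treated libraries and black bars group means. The SR, SF3, Lsm, Prpf, hnRNP and single-gene sums of all treated libraries are below those of all controls, while the Snrp sums overlap.

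The other splicing genes were taken from 9 lists of known complexes, 134 genes in all, of which 129 were tested. Of these 60 fell and 20 rose, and their median was -0.25. With GC correction 65 fell and 19 rose, with a median of -0.18. Several of the calls, named or not named below, were lost when a library was left out. Over protein-coding rows tested 27.6% fell and 23.9% rose, with a median of 0.00. The counts of the single lists stand beside those shares and were not tested against them. The snRNP proteins with Snrnp symbols and the U5 partners had 10 fallen and 1 risen of 16. Eftud2, the U5 GTPase that works with Prpf8, fell from 29.01, 28.9 and 28.4 to 14.4, 14.2 and 14.7 FPKM (-1.03 ± 0.072 SE). Cd2bp2, a U5 assembly factor, fell by 0.80, and Snrnp48, of the minor spliceosome, rose by 1.57 (1.04 with GC correction). Of the 12 U2 partners 6 fell and 0 rose. Sf1, the first reader of the branch point, fell by 1.03 and Phf5a, which sits beside Sf3b1, by 0.97. Among spliceosomal helicases 9 of 11 fell, among them Ddx39a (-0.97) and Ddx39b (-0.72). Dhx15, which releases the intron lariat, was the 1 that rose (0.52), a call lost without control library 2 or 3 or treated library 1 or 2, and its value was 0.28 without treated library 2 and -0.10 with GC correction.

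The Prp19 complex and step factors were mixed, with 7 fallen and 4 risen of 19. Ppil1 (-1.02) and Aqr (-0.93) fell, whereas Syf2 (0.79) and Cwc15 (0.60, or 0.33 with GC correction) rose. The Sm ring assembly list had 8 fallen and 0 risen of 16. Wdr77 (MEP50), the partner of the arginine methyltransferase that modifies Sm tails, fell from 13.6, 14.2 and 13.9 to 4.92, 4.87 and 4.37 FPKM (-1.60 ± 0.081 SE). Gemin5, which picks out snRNAs, fell by 1.49. With GC correction 10 genes of that list fell and 3 rose.

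Of 7 kinases of SR proteins tested 3 rose and 1 fell. Clk4, a kinase that phosphorylates RS domains, was at 0.210, 0.170 and 0.167 FPKM in controls and 1.94, 2.55 and 1.74 in treated cells (3.42 ± 0.201 SE). Clk1, its relative, was at 0.405, 0.519 and 0.596 and 3.06, 4.21 and 2.44 FPKM (2.62 ± 0.217 SE). Both rose in all 3 treated libraries by far more than the spread within the groups. Clk3 rose by 0.26 (0.47 with GC correction), a call lost without control library 1 or 3 or treated library 1 or 3. The 1 that fell was Srpk1 (-0.56), which acts in the cytoplasm.

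Exon junction genes fell in 7 of 9 cases, among them Eif4a3 (-0.84), the helicase at the core of the complex, and Alyref (-0.87), an export adaptor. Pnn was the 1 that rose (0.64), a call lost without any 1 of 5 libraries (all but treated library 3), with a value of 0.42 without treated library 2. In the nonsense-mediated decay list 5 of 12 fell, among them Nbas (-1.29) and Smg5 (-0.82), and 3 rose. Dhx34 rose by 0.89, and Upf3a by 0.36 (0.55 with GC correction), a call lost without control library 3 or treated library 1. Upf3b rose by 0.92, a call lost without control library 1 or 3 or treated library 1 or 2, and its value of 0.33 with GC correction was not called. Of 31 alternative splicing regulators tested 10 fell and 7 rose (12 and 4 with GC correction). Among them Sfpq (-1.24) and Scaf4 (-1.04) fell, and Matr3 (2.35) and Luc7l (0.87) rose.

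Transcript GC content moved with the fold change, in the members as in the whole table. Spearman's rho between log2 fold change and GC content was -0.37 over the 80 members and -0.26 over the 15760 rows with a value, a description across genes that share libraries. Of 25 members under 45% GC 8 rose and 7 fell, of 25 between 45% and 50% 5 rose and 14 fell, and of 30 at 50% or more 2 rose and 19 fell. Over all rows in these classes 40.6% rose and 7.43% fell, 23.9% rose and 20.2% fell, and 17.2% rose and 30.9% fell. The correction took out of each library a smooth trend of level on GC content, whatever its source. After it the members' rho was 0.06, 46 of them fell and 13 rose, and their median was -0.36. Of the 40 that had fallen 39 fell again, and of the 15 that had risen 9 rose again. GC content's part in the single values was not tested beyond this.

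**Figure D4:**
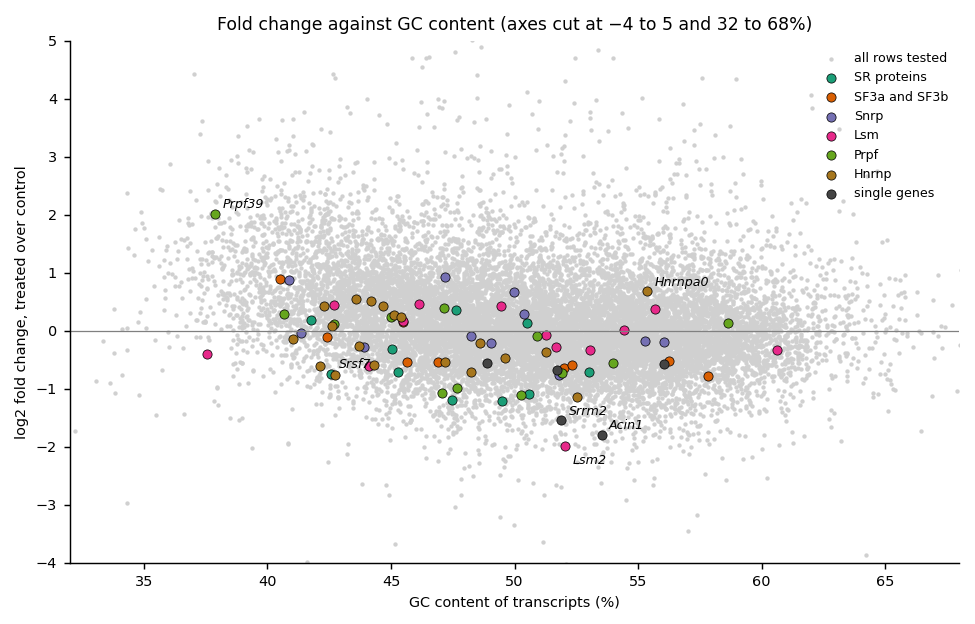
Log2 fold change of treated over control cells (y axis) against the mean GC content of a gene's transcripts (x axis, percent). Grey points are all rows tested that have a GC value, and coloured points 79 of the 80 members tested, by family. Prpf39 (37.9%), among the members lowest in GC, lies above 0, and most members above 50% lie below it, with Hnrnpa0 (55.4%) an exception.

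The annotation terms in the deposited table offered another property that the choice of genes did not use. A retained-intron transcript was listed for 60 of the 80 members (75.0%), against 55.5% of protein-coding rows tested. The members with such a transcript had a median log2 fold change of -0.33 (34 fell and 9 rose) and the 20 without one 0.13 (6 fell and 6 rose). Over protein-coding rows the same medians were -0.06 and 0.07, with 32.3% fallen and 23.4% risen among rows with such a transcript and 21.9% and 24.5% among those without. A nonsense-mediated decay transcript was listed for 37 members (46.3%), against 21.3% of protein-coding rows. With it the members' median was -0.22 and without it -0.28. The terms list transcripts known for the gene and were not measured here.

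The FPKM of the 2 groups did not overlap for 42 members that were lower and 16 that were higher in treated cells, against 27.1% and 30.4% of all rows. Within the treated group, library 2 was the highest for 12 of the 15 risen members and library 3 the lowest for 13 of them. Treated library 2 also had the highest mitochondrial share, and a link between the 2 was not tested. The order of the libraries over all risen rows is not given here, so it may not be particular to the members. For the 40 fallen members library 3 was the lowest for 20 and library 2 for 17. Leaving out each library in turn kept 45 of the 55 calls, 35 fallen and 10 risen, and the 10 others are named above with the libraries concerned. Across all 20 alternative settings 38 members were called in every setting in which they were tested, 31 fallen and 7 risen. The shares of all rows that kept their calls are not given here, so these counts describe the members alone.

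Overlap with other annotated rows touched 33 of the 82 genes. Srrm2 lies across Elob on the opposite strand (200.9 FPKM in controls, 176 in treated cells), Srsf2 across Mettl23 and Mfsd11, and Acin1 across 1700123O20Rik (20.0 and 15.5 FPKM). Mettl23 rose (0.63), Mfsd11 rose (0.27) and 1700123O20Rik fell (-0.40), whereas Elob was not called (-0.22). Sf3a2 lies across Plekhj1 on the opposite strand (35.7 and 30.7 FPKM) and Sf3b3 across Cog4 (16.5 and 19.6 FPKM). Hnrnpm overlaps Marchf2 on its own strand (11.4 and 9.60 FPKM), and Marchf2 fell too (-0.29). Since the use of strand in the counting is not given in the sources used here, reads of such pairs may have been mixed. Strand would not separate Hnrnpm from Marchf2. The values of all members with an overlapping row are uncertain to that degree. Lsm2 has no overlapping row.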

How the data were processed

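Messenger RNA of 6 libraries of CT26.WT cells was sequenced, 3 control and 3 treated, and the titles gave groups and numbers. Per the labels' protocols, the poly(A) RNA was caught on oligo-dT beads and the libraries kept strand (dUTP method). The authors deposited FPKM values and counts per gene. The deposited counts are estimated counts in whole numbers, and each gene's ratio of count to FPKM varied little between libraries (a median CV of 0.0364% in 8229 rows). Per the submitters' processing notes, edgeR, DESeq2, StringTie 2.1.6, HISAT2 2.2.1 and cutadapt 1.9 were used, in roles that are not stated. Which genome build and annotation were used, and whether counting used the strand, is not given in the sources used here. Since no label speaks of separate cultures, p-values reflect the spread among these libraries, and that spread may be technical only.

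Estimated counts were tested with edgeR 4.0.16 (quasi-likelihood test, filterByExpr, TMM scaling, 2 groups, all 6 libraries), and p-values were adjusted by Benjamini-Hochberg over all 16212 rows tested. Libraries held 62328377 to 81821380 estimated counts. Precision rests on fewer fragments than that, since a fragment seemed to weigh about 4 estimated counts. GC content is the mean over a gene's transcripts in GENCODE M21 (23981 rows and all 82 members matched by gene ID), and the correction used loess curves with a span of 0.4. Alternatives were DESeq2 1.42.0, limma 3.58.1 on log2(FPKM + 1) or log2(FPKM + 0.1) with FPKM filters, other scalings, other row sets, a replicate block, and leaving out libraries. The main edgeR fit was also run on simulated counts, and the alternatives were not. The simulation changed far fewer genes than were called here and gave all genes the same spread. It therefore does not show how the fits perform on these data.

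Members and lists were chosen with earlier results of these data known. Values in every library are given for the 4 called members of each family with the smallest p, the most abundant, those with the highest and lowest called fold change, and a fixed list of well known genes. From each list of other splicing genes, up to 2 risen and 2 fallen genes with the smallest p are named. Sf3b6, Upf3b, Clk3 and the genes named for an overlap or a pseudogene row were chosen after their values were seen. One member enters the counts and sums, but its own values are not reported here. The promoters were also searched for the motif of NRF1, which is not reported. Library numbers were not used for pairing, since libraries with the same number did not deviate together.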

Additional observations from a re-analysis of the deposited data

How the results depend on the processing

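Over the 20 alternatives the number of members risen ranged from 11 to 18 and of members fallen from 34 to 46, against 15 and 40, and each single alternative stayed within 1.5 times those counts. Over all rows, limma restricted to a mean FPKM of 5 or more called 4363 (1835 risen and 2528 fallen), with fewer genes tested by construction. Leaving out 1 library at a time gave 6073 to 7264 calls. Same-numbered libraries deviated with correlations of 0.037, -0.101 and 0.008 over 16170 genes, so the numbers do not pair them. With a replicate block 6275 rows were called (3070 risen and 3205 fallen), and 13 members rose and 34 fell. Not every library correlated best with its own number. The median log2 fold change of a family moved by more than the spread between replicates in the following settings, and the cause was not tested. Scaling by library totals gave -0.64 (SR), 0.00 (Lsm, 0.0048), -0.14 (hnRNP) and -0.61 (single genes). GC correction gave 0.00 (Snrp), 0.00 (Lsm, -0.0049), -0.34 (Prpf), -0.38 (hnRNP) and -0.54 (single genes), and with the replicate block 0.0002, -0.0024, -0.33, -0.38 and -0.54. On log2(FPKM + 1) with a mean FPKM of at least 1, limma gave -0.62 (SR), -0.0546 (Prpf) and -0.17 (hnRNP), at least 5 gave 0.0461 (Lsm) and -0.59 (Prpf), and no filter gave -0.62 (SR), -0.0039 (Lsm) and -0.17 (hnRNP). A pseudocount of 0.1 gave -0.0563 (Prpf). Without library 2 of both groups the Prpf median was -0.0365. Leaving out 1 library gave -0.75 to -0.65 (SR), -0.0549 to 0.11 (Prpf) and -0.26 to -0.19 (hnRNP). GC correction changed the sign of 11 members, 6 of them called neither with it nor without it. The 5 others were Hnrnpc (-0.38), Hnrnph1 (-0.0825), Lsm8 (-0.0049), Prpf38a (-0.37) and Srsf10 (-0.38), and Dhx15, which is no member, changed to -0.10. With the replicate block added their values were -0.38, -0.084, -0.0024, -0.36, -0.38 and -0.10. Genes of few counts, such as Prpf39, have smaller values on log2(FPKM + 1) by construction of that scale. Depth limits Lsmem1 and Snrpn, which the filter on low counts took out of the main fit.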
